A study of Mus musculus with 8 samples.

Results

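Prdm1 encodes Blimp-1, a zinc finger transcriptional repressor known from plasma cells and from T cells. In regulatory T (Treg) cells it is known as a mark of the effector state and as a regulator of the cytokine gene Il10. Genes of this kind are often controlled by enhancers, stretches of open chromatin that bind transcription factors and may lie far from the start of the gene. The sites described here were chosen by position: they are the intervals of the deposited ATAC-seq table whose midpoint lies between 44.1 and 44.7 Mb of mouse chromosome 10 in the build mm9. No threshold on values was used, but the locus itself was selected on earlier results from these same libraries, without a record of which comparison, so the tests below set differences against the spread between libraries and are no independent support for the choice of the locus. The sites number 32 of the 79758 sites of the table, and 31 of them passed the filter on low counts. The interval given for the gene, near 44.16 to 44.25 Mb on the minus strand, holds 15 sites. The stretch beyond it, up to 44.7 Mb, lies upstream of the gene and holds 7 sites. The stretch below it, from 44.1 Mb, lies downstream and holds 10 sites. No annotation of mm9 was used, so sites are named by position, numbered 1 to 32 in order of coordinate, and placed in no exon, intron or promoter. In the RefSeq table of the build GRCm38.p6, Atg5 is the next protein-coding gene on the downstream side of Prdm1 and Prep the next on its upstream side.

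ATAC-seq measures open chromatin through a transposase that cuts accessible DNA and adds sequencing adapters. The 8 libraries came from Treg cells sorted from spleen and lymph nodes of mixed bone marrow chimeras, in which marrow of more than 1 donor develops in a host. There were 4 groups of 2 libraries: Pggt1b-deficient (Pggt1bKO) eTreg, Pggt1b-deficient cTreg, wild-type (WT) eTreg and WT cTreg cells, where eTreg and cTreg, which the labels do not spell out, are the usual short names in this field for effector and central Treg cells. The product of Pggt1b is the catalytic subunit of GGTase-I, a prenylation enzyme that attaches a lipid to its target proteins. The labels give no age or strain, and do not say how or in which cells Pggt1b was deleted. They also do not say whether both libraries of a group are from different chimeras, and the spread that p-values rest on may then be technical. Library totals were 2255214 and 1664702 counts for Pggt1b-deficient eTreg, against 7153991 to 14974253 counts in the other 6 libraries, and 495 to 5547 counts per library fell in the Prdm1 locus. No count was found at 7 and 8 of the 32 sites in the Pggt1b-deficient eTreg libraries, against 0 to 4 sites in each of the others. A floor of 6 counts over a group, used where a group had no count, corresponded to 1.53 CPM (the count relative to library size, with TMM scaling) in Pggt1b-deficient eTreg and to 0.235 to 0.371 CPM in the other groups. Since the sites are those that the authors' peak caller found in these libraries, openness at a site is not itself a finding. A level is a mean over the sorted cells, so fewer cells with an open site and a less open site in every cell cannot be told apart. Neither the identity of the sorted cells nor the deletion of Pggt1b was checked against marker genes, because sites were not assigned to genes.

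The proximal promoter of Prdm1 is shown for its sequence context. These are the 250 bases before the RefSeq transcript start, GRCm38.p6 chr10:44458749-44458998, minus strand, written 5′ to 3′. GRCm38.p6 positions cannot be compared with the mm9 positions of the sites, and no site was placed on this sequence.

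Prdm1 promoter: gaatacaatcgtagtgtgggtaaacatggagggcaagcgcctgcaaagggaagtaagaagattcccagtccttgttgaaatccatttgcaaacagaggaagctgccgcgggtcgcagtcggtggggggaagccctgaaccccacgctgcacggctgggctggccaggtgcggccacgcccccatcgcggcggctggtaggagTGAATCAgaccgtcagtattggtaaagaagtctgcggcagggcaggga

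The capitals mark the only match to the motifs searched, TGAATCA at bases 203 to 209. It matches the pattern searched for AP-1 (TGANTCA), in which N stands for any base and is A here. The match is thus to this loose pattern only. AP-1 factors, among them BATF with JUN proteins, are known to act in activated T cells. Both strands were searched for TGANTCA, for a STAT motif (TTCNNNGAA), an IRF pair (GAAA, any 2 bases, GAAA), a Blimp-1-like motif (GAAAG, any 1 base, GAAAG) and a CRE motif (TGACGTCA), and the single match overlaps no other motif. Of 32851 promoter windows of the same length, 6.75% hold TGANTCA, 7.02% TTCNNNGAA, 2.98% the IRF pair, 0.393% the Blimp-1-like motif and 1.55% TGACGTCA. The match is a description of the letters and says nothing about binding.

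The most open sites of the locus lay in the gene interval and were close to equal in the 4 groups. Site 20 (chr10:44178310-44178925), the highest of the locus, had 93.3 and 88.9 CPM in Pggt1b-deficient eTreg, 75.5 and 76.7 in Pggt1b-deficient cTreg, 76.6 and 78.3 in WT eTreg, and 80.0 and 74.0 in WT cTreg libraries. Both Pggt1b-deficient eTreg libraries were the highest of the 8, but no comparison of this site passed the test. Its log2 fold change was 0.24 ± 0.11 (SE) for Pggt1b-deficient against WT eTreg (edgeR adjusted p = 0.159) and 0.01 ± 0.09 for WT eTreg against WT cTreg (edgeR adjusted p = 0.952). Site 25 (chr10:44249054-44249835), at the upstream edge of the gene interval, averaged 52.7 ± 4.12 CPM in Pggt1b-deficient eTreg, 53.0 ± 0.215 in Pggt1b-deficient cTreg, 52.4 ± 1.64 in WT eTreg and 59.0 ± 5.51 in WT cTreg libraries (SD, n = 2 each). Site 14 (chr10:44167213-44168496), the widest with 1283 bp, averaged 45.9 ± 11.2 CPM in Pggt1b-deficient eTreg, 51.9 ± 1.73 in Pggt1b-deficient cTreg, 51.2 ± 2.16 in WT eTreg and 52.6 ± 1.13 in WT cTreg libraries. At sites 14 and 25 no comparison passed the test either. Site 15 (chr10:44169603-44169751) had 8.97 and 10.1 CPM in Pggt1b-deficient eTreg, 10.9 and 9.25 in Pggt1b-deficient cTreg, 14.7 and 17.7 in WT eTreg, and 12.1 and 11.6 in WT cTreg libraries. It was highest in both WT eTreg libraries, but neither the comparison with WT cTreg (log2 fold change 0.46 ± 0.19, edgeR adjusted p = 0.0633) nor that of Pggt1b-deficient with WT eTreg cells (-0.78 ± 0.28, edgeR adjusted p = 0.0656) passed the test. The 11 remaining sites of the locus, of which only site 26 is described further on, averaged 0.0919 to 3.04 CPM over the 8 libraries. None of the 10 of these that were tested was called in any comparison. Levels are per site and not per base, and site widths ranged from 1 to 1283 bp around a median of 87 bp.

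**Figure D1:**
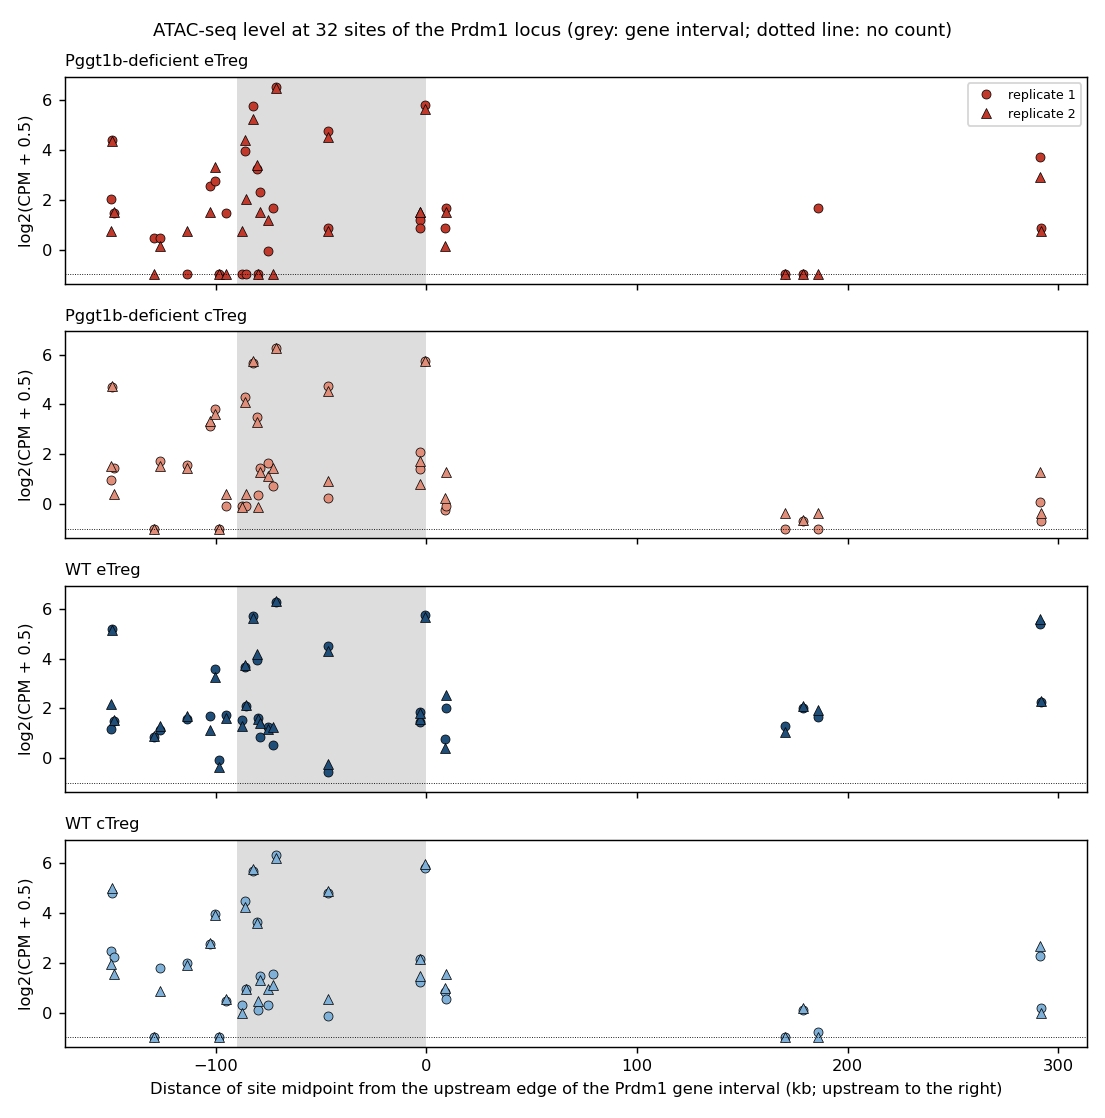
Level of each of the 32 sites in both libraries of each group, as log2(CPM + 0.5), against the distance of the site's midpoint from the upstream edge of the Prdm1 gene interval in kb. The most open sites of the gene interval (grey), sites 14, 20 and 25, reach similar levels in all 4 panels. The 5 sites farthest upstream (right) have their highest group mean in WT eTreg. Of these, sites 28, 29 and 30 passed the filter on low counts only through the WT eTreg libraries, so their pattern is partly fixed.

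Summed over its 15 sites, the gene interval varied little: 266 and 245 CPM in Pggt1b-deficient eTreg, 249 and 244 in Pggt1b-deficient cTreg, 251 and 249 in WT eTreg, and 263 and 265 in WT cTreg libraries. The 7 upstream sites summed to 20.6 and 11.3 CPM in Pggt1b-deficient eTreg, 1.57 and 5.52 in Pggt1b-deficient cTreg, 58.9 and 66.5 in WT eTreg, and 7.89 and 11.01 in WT cTreg libraries. Both WT eTreg libraries lay above all others and both Pggt1b-deficient cTreg libraries below all others, while the lower Pggt1b-deficient eTreg library was close to the higher WT cTreg library. The upstream sites thus held 5.06 ± 1.72% of the counts of the locus in Pggt1b-deficient eTreg, 1.16 ± 0.918% in Pggt1b-deficient cTreg, 16.7 ± 1.31% in WT eTreg and 2.80 ± 0.630% in WT cTreg libraries (SD, n = 2 each). The 10 downstream sites summed to 42.2 and 37.3 CPM in Pggt1b-deficient eTreg, 57.0 and 55.9 in Pggt1b-deficient cTreg, 63.0 and 60.8 in WT eTreg, and 64.8 and 63.8 in WT cTreg libraries, lowest in both Pggt1b-deficient eTreg libraries. These sums over stretches were not tested as such. The tests of summed counts are those of the 50 kb tiles given further on.

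**Figure D2:**
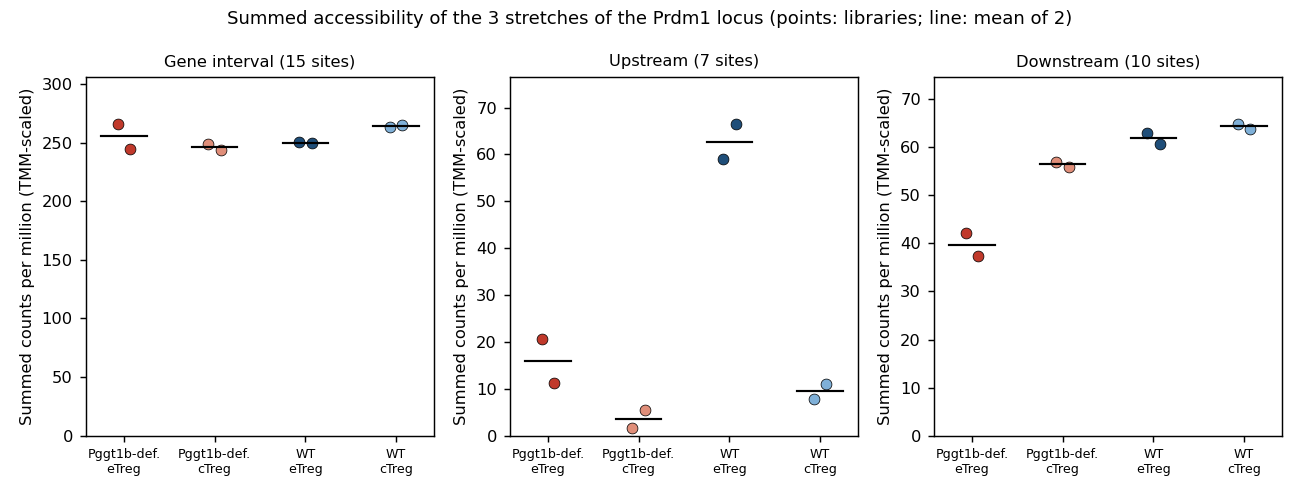
Summed CPM of the gene interval, the upstream and the downstream sites of the Prdm1 locus per library, with the mean of the 2 libraries as a line; each vertical axis starts at 0 and has its own scale. Upstream, WT eTreg libraries reach 58.9 and 66.5 CPM, against at most 20.6 CPM in any other library.

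WT eTreg cells were more open than WT cTreg cells at 11 of the 31 sites tested and less open at 4 (edgeR quasi-likelihood test, adjusted p under 0.05 over the whole table). Over all 75352 sites tested, 13.8% were called higher and 14.9% lower in this comparison. Of the 11, 6 lay among the 7 upstream sites, 3 in the gene interval and 2 downstream. Of these 11, 7 (sites 4, 10, 11, 16, 28, 29 and 30) reached the filter's level of 0.998 CPM in 2 libraries only through the WT eTreg libraries, so they could hardly be tested without being higher there, and neither the 11 nor the 6 of 7 is support for a difference of the locus. Sites 13, 27, 31 and 32 reached that level in other groups as well. Among the 15 sites with a mean count of at least 20 over the 8 libraries, 2 were higher and 4 lower. The share over all sites of the table under that filter was not computed, so no balance is read from these counts. The 4 lower sites lay in the gene interval (2) and downstream (2). The median log2 fold change was 0.01 over the 31 sites, against 0.00 over all tested sites of the genome.

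Most of the upstream counts in WT eTreg libraries came from site 31 (chr10:44541462-44541730), 268 bp wide and 291.6 kb upstream of the gene interval. It had 28 and 12 counts in Pggt1b-deficient eTreg, 5 and 14 in Pggt1b-deficient cTreg, 451 and 697 in WT eTreg, and 54 and 75 in WT cTreg libraries. Scaled for depth, it had 12.6 and 7.11 CPM in Pggt1b-deficient eTreg, 0.561 and 1.93 in Pggt1b-deficient cTreg, 41.8 and 47.3 in WT eTreg, and 4.35 and 5.94 in WT cTreg libraries. No 2 groups overlapped, in the order WT eTreg, Pggt1b-deficient eTreg, WT cTreg, Pggt1b-deficient cTreg from high to low. WT eTreg exceeded WT cTreg cells by 3.11 ± 0.21 on the log2 scale (SE; edgeR adjusted p = 7.91e-15). Site 32 (chr10:44541834-44541953), 104 bp from site 31 and possibly part of the same open region, had 4.26 and 4.41 CPM in WT eTreg against 0.644 and 0.475 CPM in WT cTreg libraries (log2 fold change 2.93 ± 0.51, edgeR adjusted p = 2.4e-05).

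A further group of 3 narrow sites lies 170 to 186 kb upstream of the gene interval, and all 3 reached the filter only through the WT eTreg libraries. Site 29 (chr10:44428807-44428868) had 38 and 56 counts in WT eTreg against 7 and 8 in WT cTreg libraries, 2.59 ± 0.54 higher on the log2 scale (edgeR adjusted p = 3.15e-04). Sites 28 and 30 had too few counts for the naming rule and were chosen after their values were seen. Site 28 (chr10:44420211-44420261) had 21 and 23 counts in WT eTreg and none in WT cTreg libraries, at least 7.20-fold higher in WT eTreg (edgeR adjusted p = 2.16e-04). Site 30 (chr10:44435942-44436002) had 29 and 49 counts in WT eTreg against 1 and 0 in WT cTreg libraries, a ratio of 76.5 with a 95% interval from counting error of 6.48 to 1550 (edgeR adjusted p = 1.33e-05). Close to the gene interval, site 27 (chr10:44259322-44259414) was higher by 1.37 ± 0.44 in WT eTreg (edgeR adjusted p = 0.0173).

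**Figure D3:**
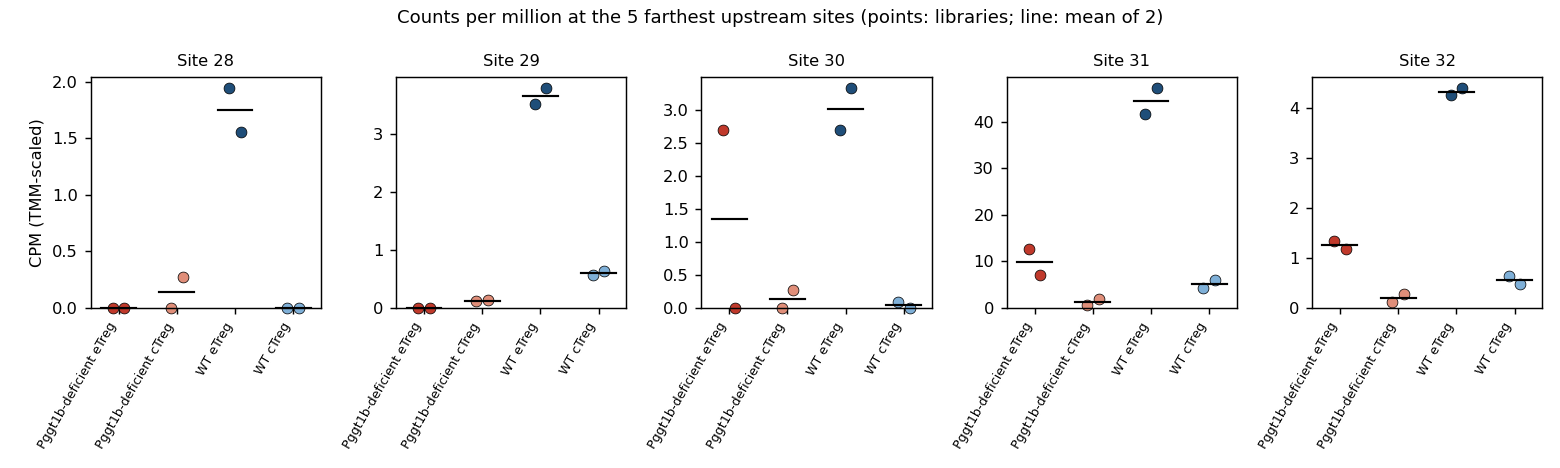
CPM of sites 28 to 32, the 5 farthest upstream, in each library (points) with the mean of 2 (line); vertical axes start at 0 and differ in scale. WT eTreg libraries are highest at sites 28, 29, 31 and 32. At site 30, 1 Pggt1b-deficient eTreg library with 6 counts reaches the level of a WT eTreg library. Sites 28, 29 and 30 passed the filter on low counts only through the WT eTreg libraries, so their pattern is partly fixed.

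Within the gene interval, site 16 (chr10:44170084-44170187) had 2.60 and 2.44 CPM in WT eTreg against 0.564 and 0.871 CPM in WT cTreg libraries (log2 fold change 1.79 ± 0.58, edgeR adjusted p = 0.0178). The other 2 that rose there, sites 11 and 13, are 71 and 1 bp wide and averaged 2.19 ± 0.312 and 3.83 ± 0.0488 CPM in WT eTreg against 0.600 ± 0.177 and 1.44 ± 0.0171 CPM in WT cTreg libraries (SD, n = 2 each). Downstream, site 4, with 14 and 20 counts in WT eTreg and none in WT cTreg libraries, was at least 5.56-fold higher. Site 10 averaged 2.73 ± 0.208 CPM in WT eTreg against 0.918 ± 0.0456 CPM in WT cTreg libraries. Sites 4, 10, 11 and 16 passed the filter only through the WT eTreg libraries, so their higher values there are partly fixed.

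The 4 sites that fell in WT eTreg cells had higher levels and smaller fold changes than most of those that rose. Of the 11 that rose, 7 passed the filter only through the WT eTreg libraries, and sites with few counts need larger fold changes to be called. This contrast is therefore partly fixed and is no trait of the sites that fell. Site 7 (chr10:44147275-44147488) had 2.78 and 1.70 CPM in WT eTreg against 6.20 and 6.41 CPM in WT cTreg libraries, a fall of 1.52 ± 0.32 on the log2 scale (edgeR adjusted p = 3.22e-04). Its neighbour site 8 (chr10:44149367-44149542) had 11.4 and 9.16 CPM in WT eTreg against 14.98 and 14.8 CPM in WT cTreg libraries (log2 fold change -0.54 ± 0.20). In the gene interval, site 12 (chr10:44163600-44164014) had 12.1 and 12.9 CPM in WT eTreg against 22.1 and 18.5 CPM in WT cTreg libraries (log2 fold change -0.70 ± 0.17). Site 21 (chr10:44203050-44203221) had 22.2 and 19.3 CPM in WT eTreg against 27.6 and 29.3 CPM in WT cTreg libraries (log2 fold change -0.46 ± 0.14). The edgeR adjusted p was 0.036 at site 8, 0.00196 at site 12 and 0.0128 at site 21. Together the 4 sites, which the WT values chose, summed to 53.8 and 55.1 CPM in Pggt1b-deficient eTreg, 66.6 and 60.45 in Pggt1b-deficient cTreg, 48.6 and 43.1 in WT eTreg, and 70.95 and 69.1 in WT cTreg libraries. Both Pggt1b-deficient groups lay between the WT groups, with no overlap between any 2 groups.

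Leaving out 1 library lowered the count of 15 called sites to 7 without WT cTreg replicate 1, 9 without WT cTreg replicate 2 and 8 without WT eTreg replicate 2, and DESeq2 called 8. Sites 29, 31 and 32, which rose, and site 7, which fell, stayed past the threshold in each of these. Sites 8, 12, 16 and 21 lost their call in at least 1 of them. Site 29 passed the filter only through the WT eTreg libraries, so its repeated call as higher there is partly fixed.

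In eTreg cells, sites 16, 29 and 31 and one site at the downstream end were less open without Pggt1b. With sites lacking counts in a group at their bound, the median log2 fold change was -1.002 over the 7 upstream sites. It was -0.79 over the 9 downstream sites tested and -0.13 over the gene interval. Over all tested sites the median was -0.09, from fitted values without such bounds. Of the 7 upstream sites, 3 reached the filter only through the WT eTreg libraries, as did sites 4, 10, 11 and 16 elsewhere. The medians of the stretches are therefore partly fixed by the filter and are no support for a fall. Sites 16 and 29 were tested only because they are high in WT eTreg libraries, so their lower values here are partly fixed by the filter. Pggt1b-deficient eTreg cells were less open than WT eTreg cells at 4 of 31 sites and more open at none, against 6.43% called lower and 4.66% called higher over the whole table (edgeR, adjusted p under 0.05). At an unadjusted p under 0.05, 8 of the 31 sites were lower and 2 higher. Over the whole table, 11291 of 75352 sites were lower and 7748 higher at that threshold. Neither DESeq2 nor limma-voom with group weights called any site higher. With loess offsets, or among sites with a mean count of at least 20, the split was 2 lower and 1 higher. Site 31 was lower by 2.13 ± 0.27 without Pggt1b on the log2 scale (edgeR adjusted p = 4.62e-07), from the counts given above. Site 29 had no count in either Pggt1b-deficient eTreg library against 94 over the WT eTreg libraries, at least 2.40-fold lower (edgeR adjusted p = 0.00427, but 0.484 with loess offsets). Site 16 also had none, against 64 counts over the WT eTreg libraries, at least 1.64-fold lower (edgeR adjusted p = 0.0199), with 0.600 ± 0.262 CPM in Pggt1b-deficient cTreg cells. The call of site 16 was lost with each of the 4 eTreg libraries left out in turn (edgeR adjusted p 0.057 to 0.113), with loess offsets (0.412), with halved counts (0.0527) and with limma-voom (0.0531).

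The last of the 4 sites lies at the other end of the locus. Site 2 (chr10:44100435-44100993) had 20.6 and 20.1 CPM in Pggt1b-deficient eTreg, 25.8 and 26.1 in Pggt1b-deficient cTreg, 36.0 and 34.6 in WT eTreg, and 27.1 and 31.2 in WT cTreg libraries. It was lower by 0.79 ± 0.19 than in WT eTreg cells on the log2 scale (edgeR adjusted p = 0.00417, but 0.181 with counts thinned to the smallest library). At site 28, with no count in Pggt1b-deficient eTreg libraries and 1.95 and 1.56 CPM in WT eTreg libraries, the depth allowed no more than a bound of 1.13-fold lower, and the test was not passed (edgeR adjusted p = 0.0927). Site 32 had 3 and 2 counts in Pggt1b-deficient eTreg against 46 and 65 in WT eTreg libraries, 3.41-fold lower with a 95% interval from counting error of 0.931 to 14.3 (edgeR adjusted p = 0.0971). DESeq2 called 2 of the 23 sites for which it gave an adjusted p. The 2 WT eTreg libraries enter both this comparison and the WT subset comparison, so opposite signs at a site are not independent.

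Site 31 was also the only site called between genotypes in cTreg cells. Pggt1b-deficient cTreg cells were less open than WT cTreg cells at 1 of 31 sites and more open at none, against 1.69% called lower and 0.53% called higher over the whole table (edgeR, adjusted p under 0.05). At an unadjusted p under 0.05, 4 of the 31 sites were lower and 0 higher. Over the whole table, 6478 of 75352 sites were lower and 3858 higher at that threshold. DESeq2, which gave an adjusted p for 10 of the sites, and limma-voom each called 1 site lower and 0 higher. Site 31 was lower by 2.11 ± 0.37 on the log2 scale (edgeR adjusted p = 5.56e-04). This call rests on Pggt1b-deficient cTreg replicate 1, which had 5 counts against 14 in replicate 2: without it the log2 fold change was -1.41 and the edgeR adjusted p 0.127, and with thinned counts the adjusted p was 0.354. The log2 fold change over the 7 upstream sites had a median of -1.46, against -0.22 over the gene interval, -0.24 over the downstream sites tested and -0.03 over the whole table. The upstream median is the value of site 26, which was not called (8 against 35 counts, edgeR adjusted p = 0.389). Sites 28, 29, 30 and 32 each had only 2 or 3 counts over both Pggt1b-deficient cTreg libraries. Sites 28 and 30 had 0 and 1 counts over both WT cTreg libraries, so no direction can be read there. The median is thus no support for a fall of the whole stretch.

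The difference between eTreg and cTreg cells at site 31 was present in Pggt1b-deficient cells too, at lower levels. Without Pggt1b, 1 of 31 sites was higher and none lower in eTreg than in cTreg cells, against 4.59% called higher and 4.52% called lower over the whole table (edgeR, adjusted p under 0.05). At an unadjusted p under 0.05, 4 of the 31 sites were higher and 3 lower. Over the whole table, 8076 of 75352 sites were higher and 9837 lower at that threshold. DESeq2 and limma-voom each called 1 site higher and 0 lower. The site was site 31, with 3.09 ± 0.45 as its log2 fold change (edgeR adjusted p = 1e-05). Without Pggt1b-deficient eTreg replicate 2, 2 sites were called higher and 1 lower. Site 30 had 6 and 0 counts in Pggt1b-deficient eTreg against 0 and 2 in Pggt1b-deficient cTreg libraries, which at this depth did not pass the test (edgeR adjusted p = 0.0965). The 11 sites called higher in WT eTreg cells summed to 22.4 and 15.4 CPM in Pggt1b-deficient eTreg against 3.36 and 7.31 CPM in Pggt1b-deficient cTreg libraries, and to 70.7 and 77.9 CPM in WT eTreg against 10.2 and 13.2 CPM in WT cTreg libraries, where the WT values chose the sites. The Pggt1b-deficient eTreg sum rests on 76 counts over both libraries.

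**Figure D4:**
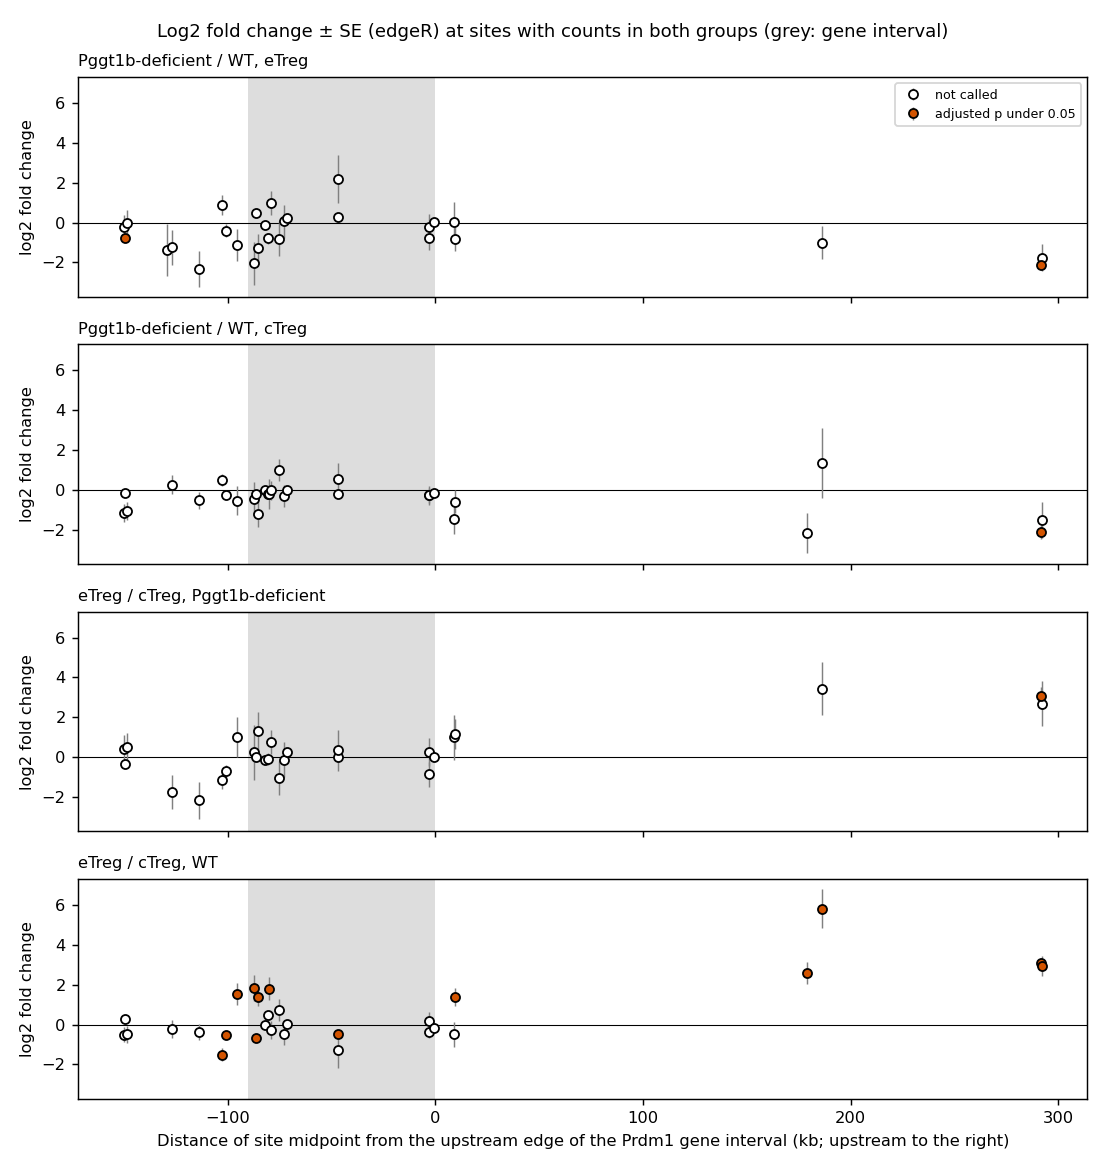
Log2 fold change with its SE (edgeR) in 4 comparisons at the tested sites with counts in both groups, against the distance from the upstream edge of the Prdm1 gene interval in kb; filled points have an adjusted p under 0.05, and 3 to 5 sites per panel are not drawn for lack of counts or because they were not tested. Site 31, at 291.6 kb, is the one site filled in all 4 panels.

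No site passed the test of the interaction, which sets the fold change of Pggt1b loss in eTreg cells against that in cTreg cells. Of all tested sites 0.957% had a higher and 0.555% a lower fold change in eTreg than in cTreg cells in this test (edgeR, adjusted p under 0.05). At an unadjusted p under 0.05, 1 of the 31 sites was higher and 3 were lower. Over the whole table, 5403 of 75352 sites were higher and 5953 lower at that threshold. DESeq2 and limma-voom called none. At site 31 the 2 fold changes of Pggt1b loss differed by -0.02 ± 0.46 on the log2 scale (SE combined from both comparisons), so a difference of up to nearly 1 in either direction lies within about 2 SE.

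Summing counts in 50 kb tiles of the genome gave more counts per value. The locus spans 12 such tiles, of which 6 hold sites and all 6 were tested. In WT eTreg against WT cTreg cells 2 tiles were higher and 1 lower, against 20.8% and 22.8% of 18233 tiles over the genome (edgeR, adjusted p under 0.05). The tile at 44.4 to 44.45 Mb, with sites 28 to 30, rose by 3.61 ± 0.49 on the log2 scale (edgeR adjusted p = 4.38e-06). Outside WT eTreg, this tile exceeded the filter's level of 0.998 CPM in Pggt1b-deficient eTreg replicate 1 alone. Like its sites, it could hardly be tested without being higher in WT eTreg, so its rise is partly fixed by the filter. The tile at 44.5 to 44.55 Mb, with sites 31 and 32, rose by 3.02 ± 0.21 (edgeR adjusted p = 4.78e-10). The tile at 44.2 to 44.25 Mb, in the gene interval, fell by 0.34 ± 0.08 (edgeR adjusted p = 0.0019).

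In Pggt1b-deficient against WT eTreg cells 3 tiles were lower and none higher, against 11.6% and 13.2% over the genome (edgeR, adjusted p under 0.05). The tile at 44.4 to 44.45 Mb had 6 and 0 counts in Pggt1b-deficient eTreg against 88 and 128 in WT eTreg libraries (log2 fold change -2.38 ± 0.66, edgeR adjusted p = 0.0117). Because it passed the filter through WT eTreg, its fall here is partly fixed as well. The tile at 44.5 to 44.55 Mb was lower by 2.01 ± 0.27 (edgeR adjusted p = 1.97e-05). The tile at 44.1 to 44.15 Mb, with sites 1 to 8, averaged 39.1 ± 1.22 CPM in Pggt1b-deficient eTreg against 55.9 ± 0.614 CPM in WT eTreg libraries (log2 fold change -0.51 ± 0.13, edgeR adjusted p = 0.00799). That tile was lower in Pggt1b-deficient eTreg than in Pggt1b-deficient cTreg cells too, by 0.54 ± 0.14 (edgeR adjusted p = 0.00653), where Pggt1b-deficient cTreg libraries averaged 57.2 ± 1.08 CPM.

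In cTreg cells 1 tile was lower without Pggt1b and none higher, against 5.44% and 4.45% over the genome (edgeR, adjusted p under 0.05). It was the tile at 44.5 to 44.55 Mb, with -2.02 ± 0.37 on the log2 scale (edgeR adjusted p = 0.00182), and it was not called without Pggt1b-deficient cTreg replicate 1. Between Pggt1b-deficient eTreg and cTreg cells 1 tile was higher, the one at 44.5 to 44.55 Mb with 3.03 ± 0.44 (edgeR adjusted p = 5.55e-05), and 1 lower, the one at 44.1 to 44.15 Mb, against 11.4% and 12% over the genome. No tile passed the interaction test, against 4.35% higher and 1.93% lower over the genome (edgeR, adjusted p under 0.05), and DESeq2 called none.

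In the 600 kb window above it, beyond the upstream edge, 8 of 16 tested sites were higher and none lower in WT eTreg than in WT cTreg cells (13.8% and 14.9% of all tested sites), and Pggt1b loss in eTreg cells went with 4 lower and no higher sites (6.43% and 4.66% of all tested sites). In the 600 kb window below it, 4 of 31 tested sites were higher and 2 lower in WT eTreg than in WT cTreg cells, and Pggt1b loss in eTreg cells went with 2 lower and 2 higher sites. In cTreg cells no site of either window was called between genotypes. No test compared the windows with each other or with the locus. At the edges themselves, site 1, just inside, had 8 and 2 counts in Pggt1b-deficient eTreg, 13 and 17 in Pggt1b-deficient cTreg, 19 and 59 in WT eTreg and 62 and 43 in WT cTreg libraries. The nearest site outside on that side, chr10:44097563-44097577, had 2 and 0 counts in Pggt1b-deficient eTreg, 0 and 2 in Pggt1b-deficient cTreg, 10 and 12 in WT eTreg, and none in WT cTreg libraries. Above, site 32 is followed by chr10:44714476-44714517, which had counts in 3 libraries, 7 and 10 in WT eTreg and 4 in WT cTreg replicate 2.

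The sites whose level followed the summed locus most closely over the 8 libraries, among 19514 sites elsewhere with a mean count of at least 100, were chr2:172765770-172766243 (Pearson r = 0.9961 of log2 CPM), chr16:20651481-20652140 (0.9922), chr6:73198209-73199014 (0.9922), chr3:138556434-138556824 (0.9919) and chr3:137458794-137459172 (0.9895). Among 12202 tiles, the closest were those that start at 21100000 on chromosome 12 (r = 0.9962), at 5300000 on chromosome 17 (0.986), at 17200000 on chromosome 6 (0.9835), at 138550000 on chromosome 3 (0.9748) and at 144050000 on chromosome 7 (0.974). These values describe 8 libraries that share groups and depth, and the highest of so many correlations is high by selection.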

How the data were processed

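The deposited table holds raw whole-number counts per peak and library, with no normalization by the authors. The submitters' processing notes name the build mm9 and, among tools, MACS2 2.1.1, Picard 2.9.4, Trimmomatic 0.36, bedtools and SAMtools. Not given in the sources used here are the aligner, any shift of read ends, the peak threshold, pooling before peak calling, and the unit counted (read or fragment). Of counts from 1 to 10, 66.1% to 77.4% were even, so many counts come in pairs. Intervals and the floor of 6 counts per group therefore take every 2 counts as 1 observation, and cover counting error only. Whether starts count from 0 or 1 is not stated.

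The tests used edgeR 4.0.16 (R 4.3.3) with filterByExpr, TMM scaling, 1 mean per group over all 8 libraries, two-sided quasi-likelihood F tests, and Benjamini-Hochberg adjustment over the 75352 sites or 18233 tiles tested, with a threshold of 0.05. The SE is the size of the log2 fold change divided by the root of its F statistic. Alternatives used DESeq2 1.42.0, limma 3.58.1, other scalings and filters, and left-out libraries. Scripts were tested on simulated data.

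Sites named in full are the 10 with the highest mean CPM and, per pairwise comparison, up to 4 per direction with an adjusted p under 0.05, a mean count of at least 20 and no overlap in CPM. Sites 1, 4, 10, 11, 13, 26, 27, 28 and 30 fall outside this rule and were named after their values were seen. The locus, lists and rules were chosen with earlier results of these data known. Lists of marker and pathway genes were not run, since they needed an annotation of mm9.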

Additional observations from a re-analysis of the deposited data

How the results depend on the processing

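In WT eTreg against WT cTreg cells 15 sites of the Prdm1 locus were called, 11 higher and 4 lower, against 6 with a mean count of at least 20 (2 higher and 4 lower of 15 tested), 8 with DESeq2 (6 higher and 2 lower) and 1 after thinning every library to the depth of the smallest; the count was 7 to 16 with 1 library left out. In Pggt1b-deficient against WT eTreg cells 4 sites were called, against 2 with DESeq2 and 1 with thinned counts, and 3 to 5 with 1 library left out. In cTreg cells the 1 call between genotypes became 0 with thinned counts and was 0 to 1 with 1 library left out. Between Pggt1b-deficient eTreg and cTreg cells 1 site was called, against 3 with loess offsets, 2 with a mean count of at least 20, and 1 to 3 with 1 library left out. The interaction had 0 calls under each alternative. Without both Pggt1b-deficient eTreg libraries, an alternative chosen after seeing the data, 17 sites were called in WT eTreg against WT cTreg cells and 1 between genotypes in cTreg cells. Of tiles, WT eTreg against WT cTreg had 3 calls, but 5 with 25 kb tiles and 2 to 3 with 1 library left out, and the cTreg comparison of genotypes had 0 to 1 with 1 left out. The summed locus in WT eTreg had 375 CPM, but 365 with plain totals, 297 without site 20 and 372 to 377 with 1 library left out. In Pggt1b-deficient cTreg it had 307 CPM, but 310 with plain totals, 230 without site 20 and 305 to 308 with 1 left out. In Pggt1b-deficient eTreg it had 311 CPM, but 220 without site 20. In WT cTreg it had 338 CPM, but 334 with relative log expression size factors and 261 without site 20. The cause of these shifts was not tested, apart from the fewer sites or counts that some settings leave. Of 216 recomputed fold changes of the named sites, 192 kept their side of the threshold, 24 lost the call and 0 changed sign. Settings in which a site was filtered out or had no adjusted p are not among the 216, so such losses are not counted. With the replicate number as a block, the site counts were 15, 1, 4, 1 and 0, equal to those without it. The deviations of same-numbered libraries from their group means correlated at -0.023 to 0.089. These deviations include counting error, so the low values cannot settle whether the numbers pair the samples. Depth limits what Pggt1b-deficient eTreg libraries can show at narrow sites: 1.53 CPM is their floor.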
